A study of Homo sapiens with 8 samples.

Results

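NF-kB is a family of dimeric transcription factors, and the genes examined here are its 5 subunits together with 5 inhibitors and feedback genes of the pathway. The subunit genes are NFKB1, NFKB2, RELA, RELB and REL, the inhibitor genes are NFKBIA, NFKBIB and NFKBIE, and the feedback genes are TNFAIP3 and BIRC3. They were taken by gene symbol from the deposited tables, where all 10 were listed among 16383 genes with counts and among 16383 genes with FPKM. The libraries came from MDA-MB-231, an established human line of triple-negative breast cancer cells, grown with 10% fetal bovine serum. One group of 4 received 5 µM c-di-GMP, a bacterial cyclic dinucleotide, and the other group of 4 received phosphate-buffered saline as vehicle. Both were harvested after 24 h, and total RNA was made into RNA-seq libraries. The series title links c-di-GMP to metastasis, to the proteasome subunit gene PSMD3 and to the cyclic dinucleotide sensor STING, and the comparison of treated with vehicle cells gives the transcript levels that go with the treatment.

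In resting cells the IkB proteins hold NF-kB dimers in the cytoplasm. Receptors of the TNF, interleukin-1 and Toll-like families, and STING, can activate the IkB kinases, after which IkB is degraded by the proteasome and the dimers enter the nucleus. The proteasome also trims the precursor proteins of NFKB1 and NFKB2 to their shorter DNA-binding forms. NF-kB then induces several of its own inhibitors and subunits, so that transcripts of NFKBIA and TNFAIP3 serve as a common readout of recent pathway activity.

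Sequence before RefSeq start sites of these genes is shown because it carries matches to the kB consensus, the DNA element that NF-kB dimers bind. The consensus was searched by its letters on both strands over the 250 bases upstream of each start in the RefSeq promoter table of GRCh38.p14. Of the 8 members with an entry (RELB and NFKBIE had none), 7 held a match, and RELA held none at either of its listed starts. Over all 35116 promoters of that length, 9.96% held a match. Counted by start, 8 of the 13 listed starts of the members had one. A match describes letters only, overlapping matches on the opposite strand included, and binding was not measured. The stretches below run 5′ to 3′ along the gene's own strand, and capitals mark the kB matches. GENCODE places some gene starts earlier than RefSeq does, and by GENCODE part of a stretch can lie in an exon, of the same gene or of another gene on either strand, as do 30 of 30 bases for TNFAIP3 and for the first NFKB2 stretch, 27 for REL, 21 for NFKB1, 11 for the second NFKB2 stretch and 10 for NFKBIB.
NFKB1 chr4:102501300-102501329 (plus strand): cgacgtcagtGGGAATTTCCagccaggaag
NFKB2 chr10:102394462-102394491 (plus strand): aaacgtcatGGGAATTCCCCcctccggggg
NFKB2 chr10:102395674-102395703 (plus strand): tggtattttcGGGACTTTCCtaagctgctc
REL chr2:60881518-60881547 (plus strand): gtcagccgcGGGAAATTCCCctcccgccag
NFKBIA chr14:35404750-35404869 (minus strand): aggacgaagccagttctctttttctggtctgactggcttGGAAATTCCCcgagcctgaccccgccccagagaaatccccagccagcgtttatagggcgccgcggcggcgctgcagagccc
NFKBIB chr19:38899932-38899961 (plus strand): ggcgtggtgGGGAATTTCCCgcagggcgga
TNFAIP3 chr6:137867188-137867217 (plus strand): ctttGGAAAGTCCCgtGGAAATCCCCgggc
BIRC3 chr11:102317275-102317304 (plus strand): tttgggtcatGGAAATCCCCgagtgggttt
BIRC3 chr11:102317339-102317368 (plus strand): tattaccgctGGAGTTCCCCtaagtcctaa

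The NFKBIA stretch ends at the base before its RefSeq start, and its match lies at positions -81 to -72 counted from that start. TNFAIP3 and BIRC3 each had 2 separate matches, those of TNFAIP3 from -67 and from -55. The matches of NFKBIB and of REL each read as a kB consensus on both strands. In NFKB2 a match lay at -21 to -12 from the third listed start and another at -107 to -98 from the second. NFKB2 had further matches at -78 to -69 from the second start and at -176 to -167 from the third, whose stretches are not shown. Its matches from -107 and from -176 also read on both strands.

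Total counts per library ranged from 16151360 to 18040010, so 3 counts corresponded to at most 0.186 CPM, a read count scaled to the size of its library. The members had between 176 and 3723 counts in each library other than vehicle replicate 3. That library stood apart from the rest. Its log2 CPM correlated with any other library at r = 0.868 at most, against at least 0.9865 among the other 7. The shortest quartile of genes by length took 28.4% of its counts and 13.8% to 15.6% elsewhere, and mitochondrial genes took 1.40% against 3.58% to 5.00%. Mesenchymal genes typical of the line (VIM, CD44, AXL and ANXA1) were all at 450.4 CPM or more in the other vehicle libraries and summed to 3267 to 3364 CPM over both groups. Of the leukocyte markers, CD14 had 10.8 to 17.4 CPM in the 7 libraries, while PTPRC, CD3E, CD68 and ITGAM were not among the listed genes. Among luminal markers 4 of 6 were listed, with ESR1 and PGR not among them, and their sum was 37.0 to 41.9 CPM in vehicle replicates 1, 2 and 4 and 34.6 to 36.4 CPM with c-di-GMP. The groups were apart in that sum, and in the luminal genes ERBB3 (8.87 to 11.8 against 6.44 to 7.92 CPM) and GATA3 (13.9 to 14.5 against 9.53 to 11.8 CPM). The luminal genes did not move together. EPCAM overlapped (11.7 to 14.4 against 14.1 to 15.9 CPM), and CDH1 was apart in the other direction (1.97 to 2.27 against 2.51 to 4.11 CPM). VIM (638 to 677 against 753 to 813 CPM), ANXA1 (450.4 to 488 against 521 to 537 CPM) and AXL (1243 to 1321 against 1129 to 1160 CPM) were apart as well, and the part of such shifts in the results was not tested. Groups apart were common over these 7 libraries. With TMM scaling, the c-di-GMP group lay wholly lower in 18.3% of all genes tested, and the share wholly higher is not reported here. Endothelial markers were listed for 3 of 4 genes (16.4 to 20.4 CPM in the 7 libraries) and fibroblast markers for 3 of 5 (19.6 to 26.7 CPM). In vehicle replicate 3 the sums were 2709 CPM for the mesenchymal genes, 62.6 CPM for luminal, 14.9 CPM for endothelial and 3.20 CPM for fibroblast markers. Its mesenchymal genes went both ways, with VIM higher at 1458 CPM and CD44 (691), AXL (275) and ANXA1 (284) lower. Of its luminal genes, EPCAM was at 39.02, GATA3 at 16.4, ERBB3 at 6.17 and CDH1 at 1.07 CPM. All these marker values are scaled by library total. TMM scaling placed this library 0.68 higher in log2, so its order in the mesenchymal sum depends on the scaling. Results are therefore given on all 8 libraries and on the 7 without vehicle replicate 3. The labels do not say whether replicates were separate cultures, so the p-values refer to library-to-library spread alone, and that spread may be technical.

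**Figure D1:**
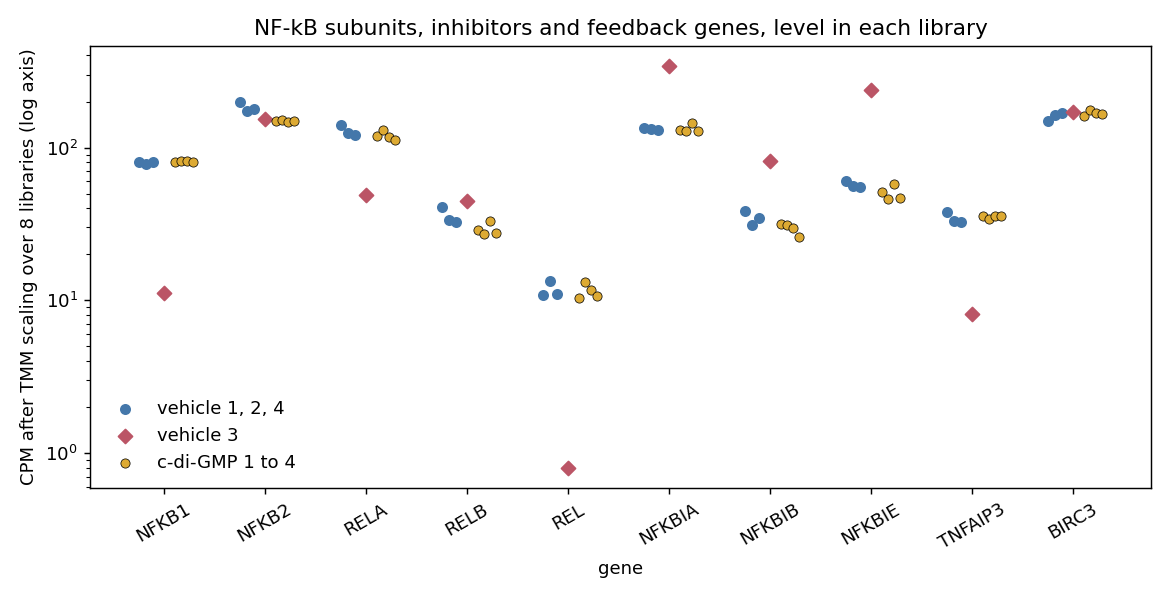
Level of each of the 10 genes in every library, as CPM after TMM scaling over 8 libraries on a log axis, with vehicle replicate 3 marked apart. The c-di-GMP libraries lie close to vehicle replicates 1, 2 and 4, while vehicle replicate 3 is far lower for NFKB1 (11.3 CPM) and REL (0.805 CPM) and far higher for NFKBIA (341 CPM) and NFKBIE (237 CPM).

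With the 7 libraries, NFKB2, RELB, NFKBIB and NFKBIE were lower after c-di-GMP, by 0.19 to 0.31 on the log2 scale, and no member was higher. NFKB1, RELA, REL, NFKBIA, TNFAIP3 and BIRC3 did not pass the test. By edgeR's quasi-likelihood test, with p adjusted over 15647 genes, 0 of 10 members rose and 4 fell. Of all genes tested, 16.2% were called lower, 13.5% higher and 29.6% in either direction. The median log2 fold change of the 10 members was -0.07, beside 0.00 over all genes. The 4 that fell are the GC-richest members, with 60.5% to 65.4% GC in their longest transcript, and the other 6 have 34.8% to 57.1%. After each library was corrected for its trend with transcript GC content, 0 of 10 members were called by edgeR (1 at an unadjusted p under 0.05, BIRC3), with 15.2% of all genes called in that fit. With all 8 libraries, 0 of 10 members were called by edgeR, DESeq2 or limma-voom, with 0% of 15415 genes called by edgeR and 0.869% by DESeq2. In that edgeR fit RELB alone had an unadjusted p under 0.05. When limma-voom down-weighted unlike libraries instead, the same 4 members were called lower over the 8 libraries, with 18.2% of genes called lower and 35.2% called in all. With limma on log2 FPKM of 7 libraries, NFKB2 alone was called, with 14% of genes called lower and 31.4% in all. In bulk RNA, fewer cells that express a gene and less of its RNA per cell cannot be told apart.

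**Figure D2:**
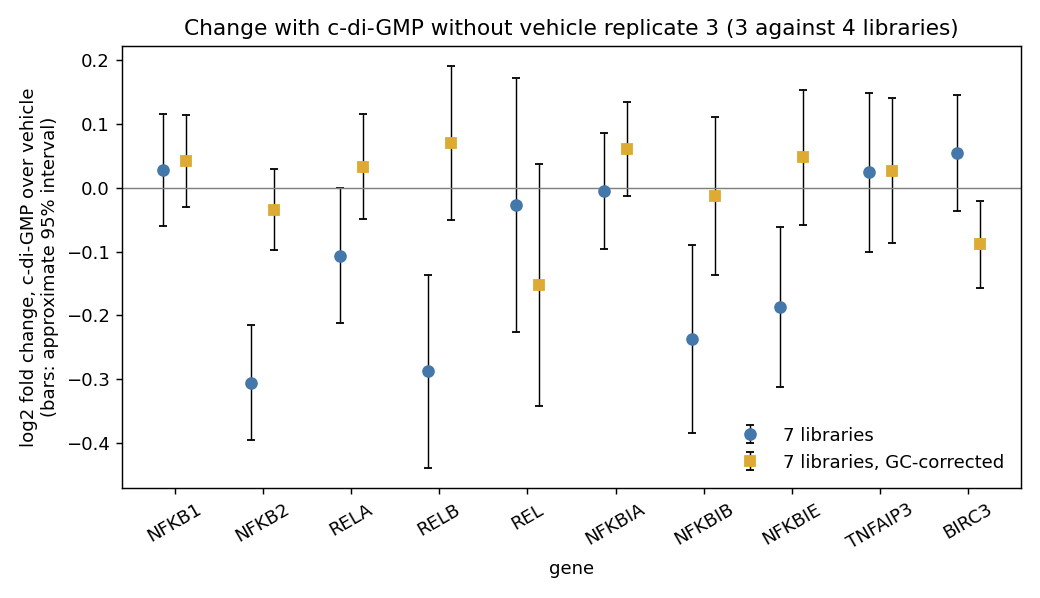
Log2 fold change of each gene, c-di-GMP over vehicle, over 7 libraries (3 vehicle, 4 c-di-GMP), uncorrected and corrected for GC content, with approximate 95% intervals. NFKB2 (-0.31) and RELB (-0.29) lie lowest before the correction and at -0.03 and 0.07 after it.

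NFKB1, which encodes the precursor of one of the main DNA-binding subunits (ENSG00000109320, plus strand of chr4:102501329-102617302, GRCh38), was level between the groups. Its normalised count was 80.6, 77.5 and 80.01 CPM in vehicle replicates 1, 2 and 4, and 80.1, 81.7, 82.2 and 80.5 CPM in c-di-GMP replicates 1 to 4. These ranges overlap, with means of 79.4 ± 1.64 (SD, n = 3) and 81.1 ± 0.989 CPM (SD, n = 4). The log2 fold change over 7 libraries was 0.03 ± 0.04 (SE), with a 95% interval from -0.06 to 0.12 (edgeR, adjusted p = 0.678). Vehicle replicate 3 had 11.3 CPM, and with it included the estimate was 0.38 ± 0.51 (edgeR, adjusted p = 0.778).

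RELA encodes the transactivating partner in the canonical dimer (ENSG00000173039, minus strand of chr11:65653596-65663094). The vehicle values were 140.4, 124 and 121 CPM, and those after c-di-GMP were 119, 129.96, 117 and 112 CPM. One c-di-GMP library, replicate 2, lay above vehicle replicates 2 and 4, and the groups overlapped. Their means were 128 ± 10.4 (SD, n = 3) and 119.6 ± 7.59 CPM (SD, n = 4). The log2 fold change was -0.11 ± 0.05 (edgeR, unadjusted p = 0.0603, adjusted p = 0.145, approximate 95% interval -0.21 to -0.00), and with the GC correction 0.03 ± 0.04 (adjusted p = 0.675). Without c-di-GMP replicate 2 the uncorrected value was -0.15 and was called (edgeR, adjusted p = 0.0432). In vehicle replicate 3 RELA was at 48.7 CPM, below every other library.

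REL, the c-Rel subunit best known in lymphoid cells (ENSG00000162924, plus strand of chr2:60881521-60931610), was scarce in both groups. It had 10.9, 13.3 and 10.9 CPM in the vehicle libraries and 10.3, 13.3, 11.7 and 10.7 CPM after c-di-GMP. The highest library of each group had 13.3 CPM, and the groups overlapped almost fully. The log2 fold change was -0.03 ± 0.10 (edgeR, adjusted p = 0.870), and its interval of -0.23 to 0.17 is the widest of the 10 genes. Vehicle replicate 3 held 9 counts of REL, or 0.805 CPM. A non-coding gene on the same strand, AC010733.2, shares 5702 exonic bases with REL in GENCODE, so the reads of the 2 genes may not be separable there.

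NFKB2, which encodes the precursor of the DNA-binding subunit of the non-canonical branch (ENSG00000077150, plus strand of chr10:102394110-102402529), fell by 0.31 on the log2 scale. The vehicle libraries had 199, 174 and 179 CPM and the c-di-GMP libraries 150.0, 150.5, 147 and 149 CPM. Every c-di-GMP library lay below vehicle replicates 1, 2 and 4, which held for NFKB2 alone among the 10 genes. Vehicle replicate 3 also lay above them with TMM scaling (155 CPM), but it lay below them by library total (103 CPM, against 155 to 159 CPM with c-di-GMP) and within their range by FPKM (33.3, against 32.7 to 33.6). Over all genes tested, the c-di-GMP group lay wholly lower in 18.3% with 7 libraries and in 7.29% with 8, both with TMM scaling. The means were 184 ± 13.3 (SD, n = 3) and 149 ± 1.61 CPM (SD, n = 4), with a fold change of -0.31 ± 0.05 in log2 (edgeR, adjusted p = 2.42e-05). With each of the 7 libraries left out in turn the estimate ran from -0.35 to -0.24 and stayed called. The GC correction took it to -0.03 ± 0.03 (edgeR, adjusted p = 0.549, 95% interval -0.10 to 0.03). The GC-corrected levels were 173, 175 and 176 CPM with vehicle and 169.6, 174, 166 and 173 CPM with c-di-GMP, which overlap, and on that scale the c-di-GMP group lay wholly lower in 10.8% of genes.

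RELB, the dimer partner of the processed NFKB2 product (ENSG00000104856, plus strand of chr19:45001430-45038198), moved in the same direction. It had 40.7, 33.4 and 32.8 CPM with vehicle and 28.8, 27.4, 33.3 and 27.6 CPM with c-di-GMP. Vehicle replicate 1 was the highest, and c-di-GMP replicate 3 lay within the vehicle range, so the groups overlapped. The means were 35.7 ± 4.42 (SD, n = 3) and 29.3 ± 2.73 CPM (SD, n = 4), and RELB fell by 0.29 ± 0.08 in log2 (edgeR, adjusted p = 0.00621). Without vehicle replicate 1 the value was -0.18 and the call was lost (edgeR, adjusted p = 0.0641), and the estimates with any library left out ran from -0.36 to -0.18. The GC-corrected value had the opposite sign, 0.07 ± 0.06 (edgeR, adjusted p = 0.511). Vehicle replicate 3 had 44.8 CPM, and over 8 libraries the estimate was -0.37 ± 0.14 (edgeR, unadjusted p = 0.0295, adjusted p = 0.623).

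NFKBIA, the gene of IkB-alpha and the inhibitor that NF-kB re-induces fastest (ENSG00000100906, minus strand of chr14:35401511-35404749), did not differ between the groups beyond their spread. It had 135, 132 and 131 CPM in the vehicle libraries. After c-di-GMP it had 129, 128, 144 and 128.5 CPM, replicate 3 being the highest of the 7 libraries and the other 3 the lowest. The means were 132.7 ± 2.30 (SD, n = 3) and 132.5 ± 7.64 CPM (SD, n = 4). The log2 fold change was -0.01 ± 0.05, with a 95% interval of -0.10 to 0.09 (edgeR, adjusted p = 0.945), and with the GC correction 0.06 ± 0.04 (adjusted p = 0.324). Vehicle replicate 3, at 341 CPM, lay far above all of these.

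NFKBIB, which encodes IkB-beta (ENSG00000104825, plus strand of chr19:38899700-38908893), fell by 0.24 in log2 over 7 libraries. The vehicle values were 38.7, 30.9 and 34.6 CPM and the c-di-GMP values 31.8, 30.9, 29.6 and 26.04 CPM. Vehicle replicate 2 lay within the c-di-GMP range. The means were 34.8 ± 3.89 (SD, n = 3) and 29.6 ± 2.53 CPM (SD, n = 4), with an SE of 0.08 on the log2 fold change of -0.24 (edgeR, adjusted p = 0.0192). The call was lost without vehicle replicate 1 (-0.15, edgeR adjusted p = 0.139) and without c-di-GMP replicate 4 (edgeR adjusted p = 0.087), and after the GC correction the value was -0.01 ± 0.06 (edgeR, adjusted p = 0.922). NFKBIB shares 40 exonic bases with SIRT2 on the opposite strand, and whether counting used strand is not given in the sources used here. In vehicle replicate 3 NFKBIB was at 82.1 CPM.

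NFKBIE, which encodes IkB-epsilon (ENSG00000146232, minus strand of chr6:44258166-44265788), had 60.5, 55.7 and 55.6 CPM with vehicle. With c-di-GMP it had 51.4, 46.3, 57.3 and 46.7 CPM. Replicate 3 of c-di-GMP reached the vehicle range and the other 3 lay below it. The means were 57.2 ± 2.79 (SD, n = 3) and 50.4 ± 5.16 CPM (SD, n = 4), and NFKBIE fell by 0.19 ± 0.06 in log2 (edgeR, adjusted p = 0.0297). This was the smallest of the 4 called changes, and it kept its call in 4 of 7 fits with a library left out, being lost without vehicle replicate 1, c-di-GMP replicate 2 or c-di-GMP replicate 4 (highest edgeR adjusted p = 0.105). The GC-corrected value was 0.05 ± 0.05 (edgeR, adjusted p = 0.632). Vehicle replicate 3 had 237 CPM, and over 8 libraries the estimate was -1.02 ± 0.50 (edgeR, adjusted p = 0.623).

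TNFAIP3 encodes the ubiquitin-editing enzyme that switches off signalling upstream of the IkB kinases (ENSG00000118503, plus strand of chr6:137867188-137883312). It had 38.1, 33.0 and 32.7 CPM with vehicle and 35.5, 33.8, 35.9 and 35.8 CPM with c-di-GMP. All 4 c-di-GMP libraries lay inside the vehicle range. The log2 fold change was 0.02 ± 0.06, with a 95% interval of -0.10 to 0.15 (edgeR, adjusted p = 0.813), and 0.03 ± 0.06 with the GC correction. An antisense gene, AL357060.1, shares 95 exonic bases with TNFAIP3 but had 87 counts over all 8 libraries. The level in vehicle replicate 3 was 8.14 CPM.

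BIRC3 encodes a ubiquitin ligase of the TNF receptor complex that also restrains the non-canonical branch (ENSG00000023445, plus strand of chr11:102317450-102339403). The vehicle libraries had 149.9, 164 and 169 CPM and the c-di-GMP libraries 162, 176, 167 and 165 CPM. Vehicle replicate 1 was the lowest and the groups overlapped. The means were 161 ± 9.95 (SD, n = 3) and 167 ± 5.96 CPM (SD, n = 4), for a log2 fold change of 0.05 ± 0.05 (edgeR, adjusted p = 0.408). BIRC3 is the most AT-rich member, and its sign turned with the GC correction, to -0.09 ± 0.03 (edgeR, unadjusted p = 0.0174, adjusted p = 0.0898). Without c-di-GMP replicate 2 the corrected value was -0.11 and was called (edgeR, adjusted p = 0.0184). In vehicle replicate 3 BIRC3 was at 172 CPM.

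The members can be set beside other genes of like GC content. Among the 1625 genes with 60% to 65% GC, which include NFKB2, NFKBIB and NFKBIE, the median log2 fold change was -0.28 and 54.8% were called lower. In the 65% to 70% bin that holds RELB, over 468 genes, the median was -0.41 and 64.7% were called lower, so RELB at -0.29 lay above its bin's median. In the bin of NFKB1 and NFKBIA, 50% to 55%, the median was -0.07 and 15.9% were called lower. At the AT-rich end, in the 30% to 35% bin of BIRC3, the median was 0.15 and 0.358% were called lower. After the correction the median of the 60% to 65% bin was -0.01, with 9.6% called lower. The median of the 10 members then was 0.03, beside -0.00 over all genes. The balance of counts by gene length, and mitochondrial content, moved with the groups as well. The shortest quartile of genes took 13.8% to 14.9% of counts in the 3 vehicle libraries and 15.2% to 15.6% with c-di-GMP, mitochondrial genes took 3.58% to 4.45% and 4.74% to 5.00%, and the part of mitochondrial content in these results was not tested. With GC and length corrected together, 0 of 10 members were called by edgeR (0 at an unadjusted p under 0.05), with 13.4% of all genes called.

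**Figure D3:**
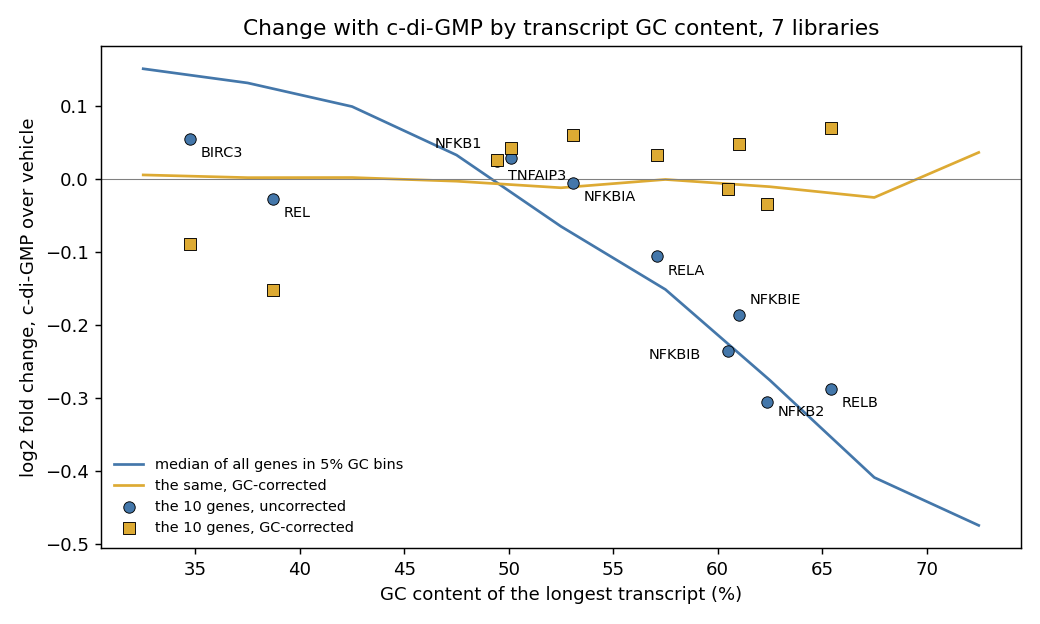
Log2 fold change, c-di-GMP over vehicle (7 libraries), against GC content of the longest transcript, for the 10 genes (points) and as medians of all genes in bins of 5% GC (lines), before and after the GC correction. The uncorrected median runs from 0.15 at 30% to 35% GC down to -0.41 at 65% to 70%, and NFKB2, RELB, NFKBIB and NFKBIE lie at its GC-rich end.

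In vehicle replicate 3 the 3 IkB genes were higher, and REL, NFKB1, TNFAIP3, RELA and, to a smaller extent, NFKB2 were lower. Relative to the mean of the other 3 vehicle libraries, REL had a log2 ratio of -3.86, NFKB1 of -2.82, TNFAIP3 of -2.09 and RELA of -1.40. NFKBIE had 2.05, NFKBIA 1.36 and NFKBIB 1.24. NFKB2 differed by -0.25, RELB by 0.33 and BIRC3 by 0.09. Under 4 scalings (TMM, library totals, median-ratio size factors and FPKM), 5 members were lower and 3 higher each time. The other two, RELB and BIRC3, changed sign with library totals (-0.35 and -0.58). TMM scaling placed this library 0.68 higher in log2 than its total did, and over 8 libraries that choice moved the median log2 fold change of all genes from 0.08 to -0.05.

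All 3 IkB genes are short, with deposited lengths of 2324 to 2581 bases, and the median gene of the shortest length quartile (at most 2714 bases) was 0.72 higher in vehicle replicate 3. NFKB1, RELA and TNFAIP3 belong to the third quartile, with a median of -0.22, and each was lower than that by more than 1 log2 unit. REL, the longest member at 13170 bases, and BIRC3, at 7518 bases, share the longest quartile with its median of -0.63, yet differed by -3.86 and 0.09. There is 1 such library, so these ratios have no replicate check, and the part of RNA quality or library preparation in them was not tested. The spread it adds is large. The common biological coefficient of variation was 36.35% over 8 libraries and 4.52% over 7.

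**Figure D4:**
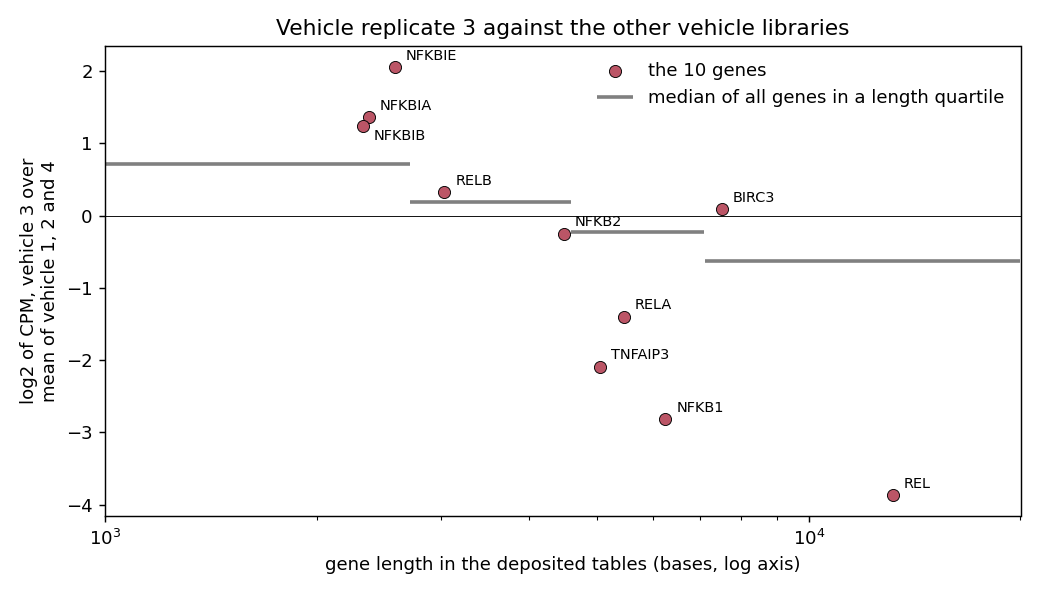
Log2 ratio of CPM in vehicle replicate 3 over the mean of vehicle replicates 1, 2 and 4, against deposited gene length on a log axis, for the 10 genes (points) and as the median of all genes per length quartile (lines). The 3 IkB genes lie above the median of short genes (0.72), and NFKB1, RELA, REL and TNFAIP3 lie below the medians of the longer quartiles.

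Per unit of deposited gene length, NFKBIA was the most abundant member and REL the least. That length covers all annotated exons of a gene and can exceed its longest transcript, as for RELA (5464 against 3183 bases) and NFKB1 (6257 against 4085 bases). Levels, shares and ratios by transcript length were not computed and could differ. In the 3 vehicle libraries the deposited FPKM averaged 55.2 ± 1.01 (SD) for NFKBIA and 40.5 ± 2.94 for NFKB2. RELA (23.2 ± 1.90), NFKBIE (21.9 ± 1.08) and BIRC3 (21.1 ± 1.29) followed, each overlapping its neighbour. Below them NFKBIB had 14.8 ± 1.65, NFKB1 12.5 ± 0.251 and RELB 11.6 ± 1.45 FPKM, and the ranges of NFKB1 and RELB overlapped. TNFAIP3 had 6.77 ± 0.605 and REL 0.879 ± 0.104 FPKM. Among 12023 protein-coding genes with FPKM, NFKBIA ranked 624 and REL 10808. With c-di-GMP the order at both ends was the same. NFKBIA had 55.7 ± 3.21, NFKB2 33.2 ± 0.392 and REL 0.873 ± 0.102 FPKM (SD, n = 4). BIRC3 (22.2), RELA (21.8) and NFKBIE (19.5) again overlapped, and NFKB1 (12.9) and NFKBIB (12.7) exchanged order within overlapping ranges.

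The make-up of the subunit transcripts was described as each gene's share of the FPKM summed over the 5 subunit genes. NFKB2 took 45.6% ± 0.518 in the vehicle libraries (SD, n = 3) and 42.3% ± 0.962 with c-di-GMP (SD, n = 4), and the ranges of 45.1% to 46.2% and 41.3% to 43.5% did not overlap. NFKB1 took 14.2% ± 0.797 and 16.5% ± 0.266, again without overlap. The sum itself was 88.7 ± 6.33 FPKM with vehicle and 78.5 ± 1.79 FPKM with c-di-GMP, while NFKB1 was at 12.5 and 12.9 FPKM, so its larger share goes with a smaller sum. RELA took 26.2% ± 0.480 and 27.8% ± 1.26, with ranges of 25.6% to 26.4% and 26.8% to 29.6% that did not overlap either. Its own level was 23.2 FPKM with vehicle and 21.8 FPKM with c-di-GMP, so its larger share also goes with the smaller sum. Shares of one sum do not move independently of each other. RELB took 13.05% ± 0.687 and 12.3% ± 1.11, and REL 0.996% ± 0.166 and 1.11% ± 0.109, both with overlap. NFKB2 is GC-rich and NFKB1 is near the median, and these shares were not corrected for GC content. The summed FPKM of the 3 IkB genes over that of the 5 subunits was 1.04 ± 0.0335 with vehicle and 1.12 ± 0.0635 with c-di-GMP, the IkB sum being 91.9 ± 3.48 and 87.9 ± 5.38 FPKM. The highest vehicle library had 1.0571 and the lowest c-di-GMP library 1.0598, so the ranges were narrowly apart. How often such shares, or such a ratio, lie apart in other sets of genes was not counted. In vehicle replicate 3 the ratio of the IkB sum to the subunit sum was 4.52. There NFKB2 took 57.4%, RELB 24.6%, RELA 14.9% and NFKB1 3.00% of the subunit sum.

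**Figure D5:**
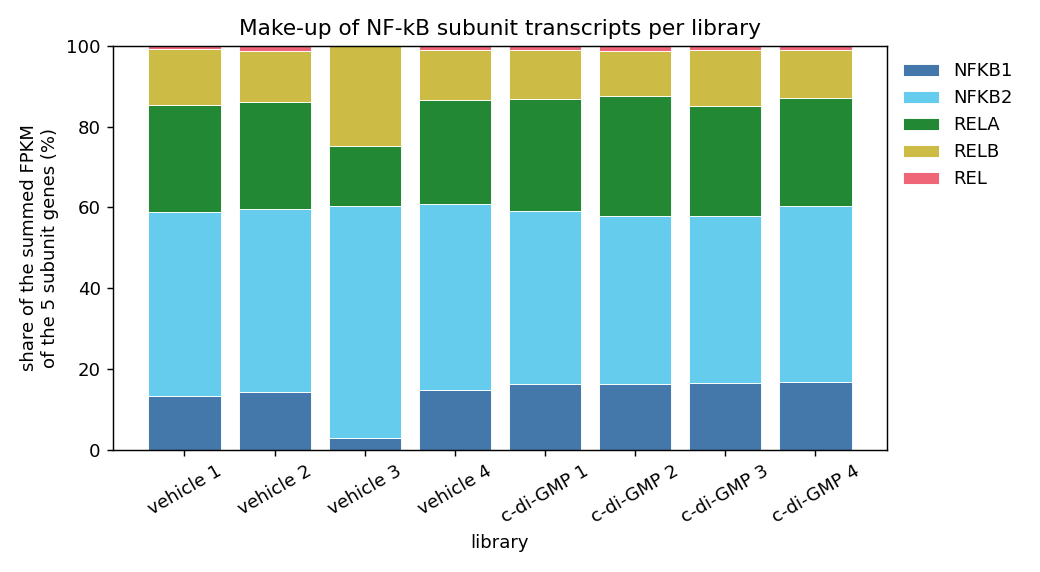
Share of the summed FPKM of the 5 NF-kB subunit genes taken by each gene, per library, as stacked bars. NFKB2 is the largest share in every library, 41.3% to 46.2% in 7 libraries and 57.4% in vehicle replicate 3.

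The genes whose pattern over the 7 libraries lay closest to a member were found by the root mean square difference of centred log2 CPM, over 9554 protein-coding genes. For NFKB1 these were UROD (0.0138) and MATN2 (0.0150), beside a median of 0.0948 over genes. For RELB they were MAP3K6 (0.0246) and PAQR4 (0.0357), whose transcripts have 63.5% and 64.6% GC, near the 65.4% of RELB. For NFKBIA they were B4GALT3 (0.0184) and AREG (0.0210). NFKB1 itself varied by 0.0257 over these libraries, and NFKBIA by 0.0539, so a close match to them is to a nearly flat profile.

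Genes around the members in the pathway were counted from lists by role. With all 8 libraries 0 genes of any list were called by edgeR. Over the 7 libraries, 3 of 24 receptor and adaptor genes rose and 9 fell, with a median log2 fold change of -0.07, beside 13.5% of all genes called higher and 16.2% lower. The 4 with the smallest p fell. They were the receptor gene TNFRSF1B (-0.48 ± 0.07), the death-domain adaptor gene TRADD (-0.47 ± 0.09), TRAF1 (-0.29 ± 0.06) and the interleukin-1 receptor kinase gene IRAK1 (-0.23 ± 0.05). With the GC correction 1 of 24 rose and 2 fell, beside 8.58% and 6.62% of all genes. Those that fell were TNFRSF1B (-0.28 ± 0.07) and TRAF1 (-0.20 ± 0.05), and the one that rose was TNFRSF12A, the TWEAK receptor gene, at 0.33 ± 0.04, named after its value was seen. Before the correction TNFRSF12A, with 64.2% GC, had 0.01 ± 0.04 and was not called (edgeR, adjusted p = 0.918).

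Of 10 kinase genes of the IkB kinase branch, 2 rose and 2 fell over 7 libraries, with a median of -0.04, where 13.5% of all genes were called higher and 16.2% lower. MAP3K7 (0.17 ± 0.06) and CHUK (0.15 ± 0.05) rose, and MAP3K14, the kinase gene that starts the non-canonical branch in which NFKB2 and RELB act, fell by 0.28 ± 0.07, as did TAB1 (-0.18 ± 0.06). With the GC correction 0 of 10 were called by edgeR, and MAP3K14 had -0.10. The 20 ubiquitin-editing and IkB-degradation genes had 7 that rose and 4 that fell, with a median of 0.08, against the same shares over all genes. RBCK1 (-0.34 ± 0.06) and SHARPIN (-0.31 ± 0.06), which encode parts of the linear ubiquitin ligase, fell. UBE2N (0.22 ± 0.04) and SKP1 (0.21 ± 0.04) rose. After the GC correction, where 8.58% of all genes were called higher and 6.62% lower, UBE2N (0.11) and TAX1BP1 (0.12) rose and XIAP (-0.15) fell, the last pair being named after their values were seen. Before the correction TAX1BP1 had 0.14 (called) and XIAP -0.02 (not called). Over 8 libraries several of these genes had the opposite sign with no call. They were SKP1 (-1.56), UBE2N (-0.14), MAP3K14 (0.03), TAB1 (0.07) and, among the adaptors, IRAK1 (0.05).

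Of the 3 atypical IkB genes, BCL3, whose product binds homodimers of the processed NFKB1 or NFKB2 products, fell by 0.50 ± 0.06 (edgeR, adjusted p = 1.78e-06). It is as GC-rich as RELB, at 67.4%, and had -0.09 ± 0.05 with the GC correction (edgeR, adjusted p = 0.210). NFKBIZ and NFKBID had -0.00 and 0.00. Among NF-kB target genes outside the members, 30 of 33 passed the filter on low counts, of which 2 rose and 9 fell over 7 libraries, with a median of -0.07, where 13.5% of all genes were called higher and 16.2% lower. With the GC correction 5 rose and 9 fell, with a median of -0.04, where 8.58% of all genes were called higher and 6.62% lower. The inflammatory cytokine gene IL1B fell by 0.44 ± 0.06, from 37.4 ± 0.894 to 27.6 ± 0.608 CPM, and kept its call with the GC correction (-0.50 ± 0.05, edgeR adjusted p = 8.84e-07). IER3, an early-response gene, fell by 0.40 ± 0.05 and by 0.22 ± 0.03 with the correction. TNFAIP2 (-0.38 and -0.12) and LIF (-0.28 and -0.14) were called in both fits too, and LIF had the opposite sign over 8 libraries (0.05, not called). The cytokine gene IL1A (-0.52 and -0.65) and PTGS2 (-0.35 and -0.48), the gene of an inducible cyclooxygenase, were also called lower in both, and SOD2 (0.21 and 0.10) and SDC4 (0.15 and 0.14) were called higher in both. These 4 were named after their values were seen, and SDC4 had the opposite sign over 8 libraries (-0.14, not called). Of the targets called in both fits, 6 were thus lower and 2 higher, and the share of all genes called in both was not counted. Called only in the GC-corrected fit were BCL2L1 (0.21), PLAU (0.11) and GADD45B (0.22), which were higher. CXCL2 (-0.22), IL6 (-0.14) and CFLAR (-0.12) were lower in that fit only, and all of these were named after their values were seen. NFKBIA and TNFAIP3, themselves NF-kB targets, were called in neither fit.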

How the data were processed

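Gene expression was measured by RNA-seq in 4 vehicle and 4 c-di-GMP libraries, grouped by their labels. The deposited tables hold raw counts per gene and, in a separate table, FPKM values made by the authors from counts and gene length. Per the submitters' processing notes, featureCounts 1.5.0-p3, HISAT2 2.0.5, DESeq2 1.20.0, CASAVA 1.8 and fastp were used. Those notes name a mouse build, but all 16383 genes with counts have human identifiers with the coordinates of GENCODE v29 (GRCh38), which were used here. For 22 genes whose symbol reads as a date, the symbol was looked up by identifier.

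Counts were tested with edgeR 4.0.16 (R 4.3.3; quasi-likelihood test, TMM scaling, filterByExpr with a minimum count of 10 and a minimum total of 15), with Benjamini-Hochberg adjustment over all genes tested and a threshold of 0.05. Intervals are the estimate ± 1.96 SE. CPM values of the members use TMM factors over all 8 libraries unless said otherwise. The CPM values of NF-kB target genes and of the closest profiles use TMM factors over 7 libraries, as do the GC-corrected levels. Marker genes, correlations between libraries and the lowest measurable CPM rest on library totals. GC content was corrected with offsets from each library's lowess trend (span 0.3) on longest-transcript GC content. Alternatives used DESeq2 1.42.0 and limma 3.58.1, other scalings and filters, FPKM with pseudocounts of 1 and 0.1, omission of each library in turn and a replicate block. Vehicle replicate 3 has a different relation of counts to FPKM (its counts amount to 146% of the total that its FPKM imply, against 92.4% to 94.4%). Mean FPKM levels and their order are therefore given for the other 7 libraries. FPKM of vehicle replicate 3 enter only the NFKB2 comparison, the 4 scalings, its own subunit shares and ratio, and the alternative fits on 8 libraries. Total counts of 16151360 to 18040010 per library set the precision. The tests were tried on simulated counts. The members, the pathway and marker lists and the omission of vehicle replicate 3 were chosen with earlier results of these data known. Besides the members, the text names the 4 genes of smallest p in each list over 7 libraries (the 3 of the atypical IkB list), some further genes said there to be named after their values were seen, and the closest 2 profiles of NFKB1, RELB and NFKBIA. The closest profiles of TNFAIP3 are not reported here. The main tests did not treat same-numbered vehicle and c-di-GMP replicates as pairs.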

Additional observations from a re-analysis of the deposited data

Results flagged for a closer look

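Of 20 groups checked (the 10 genes in each of 2 treatments), 5 had a library set apart from the other 3 by most of the group's range. Chance gives about 1 in 20 for independent groups, but these genes share the same libraries, so the count cannot be set against that rate. In 4 of them it was vehicle replicate 3, with NFKB1 at 11.3 CPM, NFKBIA at 341 CPM, NFKBIB at 82.1 CPM and NFKBIE at 237 CPM. The gap to the nearest vehicle library was 0.848 to 0.978 of the group's range. Vehicle replicate 3 was also far below the other vehicle libraries for RELA (48.7 CPM), REL (0.805 CPM) and TNFAIP3 (8.14 CPM), but short of that cutoff. In the remaining flagged group, NFKBIA stood at 143.9 CPM in c-di-GMP replicate 3, against 128 to 129 CPM in the other 3 c-di-GMP libraries. That library was also the highest of its group for NFKBIE (57.3 CPM) and RELB (33.3 CPM).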

How the results depend on the processing

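With 8 libraries 0 genes and 0 members were called by edgeR (960 genes at an unadjusted p under 0.05). DESeq2 called 134 genes and no member, and limma-voom with library quality weights called 5430 genes and 4 members (NFKB2, RELB, NFKBIB and NFKBIE, all lower). Leaving out 1 library gave 0 to 4633 genes and 0 to 4 members, the highest without vehicle replicate 3. With 7 libraries 4633 genes were called, and 2378 with the GC correction, 2097 with GC and length corrected and 1598 with the replicate block and GC correction together, each with 0 members called. All 3 fits on FPKM called 1 member, NFKB2. With each library left out 3440 to 4826 genes and 1 to 4 members were called, 1 without vehicle replicate 1 and 2 without c-di-GMP replicate 4. The sign of RELB turned to 0.0702 with the GC correction, 0.0288 with length added and 0.0111 with the replicate block and GC correction, and that of NFKBIE turned to 0.0476 with the GC correction. In the GC-corrected fit with each library left out, an alternative added after seeing the data, 1476 to 2638 genes were called (1476 without vehicle replicate 1, 1551 without vehicle replicate 4), and 0 to 1 members, BIRC3 at -0.11 without c-di-GMP replicate 2. Of 218 values of single members over 7 libraries, 190 stayed on their side of the threshold, 23 lost the call, 1 gained it (RELA without c-di-GMP replicate 2, -0.15) and 4 turned sign as above. Among the 190, 21 values that were called in neither fit changed sign. Over 8 libraries 220 of 228 stayed on their side (15 uncalled values changed sign) and 8 gained the call. Same-numbered vehicle and c-di-GMP libraries showed no shared deviation over 7 libraries (r = 0.015, -0.009 and 0.005). Over 8 libraries r was 0.184 for replicate 2, 0.123 for replicate 3 and -0.058 for replicate 4. Such values cannot tell whether same-numbered libraries were set up together. The replicate block alone gave 4093 genes and 4 members over 7 libraries. REL lies under the filter on low FPKM and was not tested in 2 of the FPKM fits. The standard errors of the members over 7 libraries, 0.04 to 0.10 in log2, bound what could be detected at this depth.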
